A study of Mus musculus with 7 samples.

Results

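The interferon-inducible GTPases are proteins that cells make in large amounts after interferon and that act against bacteria, parasites and viruses living inside the cell. The 10 genes described here are 6 immunity-related GTPases (IRG; Gm4951, Irgm1, Irgm2, Igtp, Iigp1 and Ifi47) and 4 guanylate binding proteins (GBP; Gbp2, Gbp3, Gbp5 and Gbp7), taken by gene symbol from the 26143 symbols of the count table. Gm4951 was selected on its difference between the genotypes compared below, and the other 9 were chosen by family name with results of the same comparison known. All values of the 10 genes in that comparison are therefore a description and carry no test.

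The libraries were made from alveolar macrophages that had been sorted, the phagocytes that reside in the airspaces of the lung. There were 3 libraries of Cish KO mice and 4 of WT mice, all C57BL/6 and 4 months old. Cish encodes a feedback inhibitor of cytokine receptors that signal through STAT5. The labels name no treatment, infection, sex or batch, and describe the Cish allele only as KO. Whether the libraries stem from different animals is also not labelled, so p-values measure the spread between these libraries, which may be technical.

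In the textbook view, interferons act through their receptors and the JAK kinases on transcription factors that switch on the GTPase genes. GBP and IRG proteins then gather on the vacuoles that hold pathogens and help to break them open. The Irgm proteins and Igtp instead sit on the cell's own membranes and keep the other IRG proteins inactive there. The 2 IRG classes are told apart by 1 amino acid in the GTP-binding pocket, a methionine (GMS class) in the regulators and a lysine (GKS class) in the effectors, and GBP proteins carry the lysine.

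The coding sequences below show that pocket, so that the class of each gene can be read from its bases. They come from GENCODE M21 transcripts (mouse build GRCm38, the same assembly as mm10), run 5′ to 3′ on the coding strand, and the capitals mark the codon that sets the class. The IRG genes shown lie on chromosome 11 and the GBP genes on chromosome 3.
Irgm1, coding bases 247 to 270: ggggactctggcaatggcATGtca
Irgm2, coding bases 247 to 270: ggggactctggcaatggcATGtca
Igtp, coding bases 271 to 294: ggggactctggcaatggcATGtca
Ifi47, coding bases 241 to 264: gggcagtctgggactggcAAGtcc
Gbp2, coding bases 133 to 156: ggcctctaccgcacaggcAAAtcc
Gbp3, coding bases 115 to 138: ggtttatatcgtacagggAAGtcc
Gbp5, coding bases 133 to 156: ggtctttatcgcacaggcAAAtcc
Gbp7, coding bases 133 to 156: ggactataccgtacgggaAAAtcc
Irgm1, Irgm2 and Igtp carried the methionine codon ATG within an identical stretch, and the other 5 carried a lysine codon, AAG or AAA. Outside the pocket the coding sequences of the Irgm group were less alike, with 69.4% identical aligned bases between Irgm1 and Irgm2, 70.6% between Irgm1 and Igtp and 74.6% between Irgm2 and Igtp.

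Interferon-responsive promoters typically hold 2 kinds of element, the ISRE and the GAS, which are known as binding sites of interferon-activated transcription factors. RefSeq promoters (GRCm38.p6, 250 bases before to 50 after each start site) matched 8 members by symbol, all but Gm4951 and Iigp1. The letters GAAANNGAAA, searched on both strands as an ISRE core, were found in 7 of the 8, all but Ifi47, against 3.44% of 32851 mouse promoter entries of the same length. The letters TTCNNNGAA, searched as a GAS core, were found in 4 of the 8 (Irgm2, Igtp, Gbp5 and Gbp7), against 8.3% of the entries. Each of these 4 also held the ISRE letters, against 0.454% of all entries. Members were counted by gene, with a match in any entry, while the shares are per entry. Gbp3 had 2 entries, and that of its start site 2 held neither kind of letters. The letters were not particular to the members: of 8 other IRG and GBP genes with an entry, 5 held the ISRE letters and 3 the GAS letters. Matches of 1 kind can overlap one another, as the pairs in Irgm1 and Gbp3 do, and a match is a description of the letters only.

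The 150 bases before the start site are printed for 4 members, the neighbours Igtp and Irgm2, the GBP with the highest level per length (Gbp2), and the GBP that was lower in every KO library (Gbp7). All 4 lie on the plus strand, and capitals mark the ISRE and GAS letters, read on either strand.
Igtp, chr11:58199406-58199555: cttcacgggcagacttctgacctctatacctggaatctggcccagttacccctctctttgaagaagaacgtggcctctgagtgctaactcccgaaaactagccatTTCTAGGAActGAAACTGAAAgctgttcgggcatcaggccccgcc
Irgm2, chr11:58214827-58214976: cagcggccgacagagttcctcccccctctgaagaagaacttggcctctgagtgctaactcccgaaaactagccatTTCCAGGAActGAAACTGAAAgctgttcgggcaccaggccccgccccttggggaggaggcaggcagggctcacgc
Gbp2, chr3:142620513-142620662: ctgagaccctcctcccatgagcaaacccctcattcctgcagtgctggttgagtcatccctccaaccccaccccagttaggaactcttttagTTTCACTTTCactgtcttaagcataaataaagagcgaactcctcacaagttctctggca
Gbp7, chr3:142530186-142530335: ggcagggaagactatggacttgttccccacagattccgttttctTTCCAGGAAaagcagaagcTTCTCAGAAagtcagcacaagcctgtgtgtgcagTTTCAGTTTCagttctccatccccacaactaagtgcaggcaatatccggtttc
Igtp and Irgm2 shared an unbroken run of 38 bases before their start sites, and in both the GAS letters stood next to the ISRE letters. The GAS letters began 45 and the ISRE letters 34 bases before the start of Igtp, and 75 and 64 bases before the start of Irgm2.

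Total counts were 26780291 to 30989230 in the KO and 30637634 to 34483612 in the WT libraries, and levels are given as CPM, counts scaled to library size with TMM factors. Counts of Cish were 296 to 390 in the KO and 948 to 2170 in the WT libraries. On the first principal component WT 4 lay at -7.27, between the KO libraries (-43.9 to -18.3) and the other WT libraries (24.1 to 39.4). Summed CPM of the 14 alveolar macrophage markers were 49724 to 83308 in KO and 24942 to 61101 in WT, most of it Chil3, and 9221 to 11130 in KO and 8318 to 10611 in WT without it. Of the 14 markers 2 were higher (Fabp5 and Mrc1) and 3 lower (Siglecf, Ear1 and Cidec) in all KO libraries. Over all genes tested the shares were 7.23% and 8.72%. For T cell markers the sums were 2.46 to 7.07 in KO and 1.21 to 4.54 in WT, and for NK cell markers 1.65 to 7.99 in KO and 1.85 to 4.06 in WT. Of the 6 epithelial markers Epcam was lower in all KO libraries, and the other 5 summed to 30.7 to 128 CPM in KO and 17.5 to 76.6 CPM in WT. Neutrophil markers, led by S100a8, summed to 9.82 to 32.5 CPM in KO and 5.12 to 16.3 CPM in WT, with Ly6g at 0 in all libraries. Endothelial markers, led by Vwf, summed to 14.2 to 28.7 CPM in KO and 11 to 15 CPM in WT. Without Vwf they summed to 2.72 to 5.84 CPM in KO and 0.573 to 2.13 CPM in WT, and the groups did not overlap. Pecam1 and Cdh5 were higher in all KO libraries, as were 7.23% of all genes tested, while Vwf and Kdr overlapped. In bulk samples fewer cells of a type and less RNA per cell cannot be told apart.

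All 10 members passed the filter on low counts, and edgeR's quasi-likelihood test over 12759 genes called 1 of them, Gm4951, at an adjusted p below 0.05. Over all genes tested the same rule called 0.0862%, and 0.047% in the direction higher in KO. Since Gm4951 was chosen by this very call, nothing is read from the count. DESeq2 also called Gm4951 alone among the 10, against 6.11% of the genes it tested.

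Gm4951 encodes an IRG protein of the same subgroup as Iigp1 and lies on chromosome 18 at 60212004 to 60248440 (GRCm38.p6), plus strand. It had 16.4, 8.35 and 5.96 CPM in KO 1 to KO 3, against 1.06, 0.594, 0.477 and 1.38 CPM in WT 1 to WT 4. The raw counts were 496, 215 and 162 in the KO libraries, against 38, 19, 15 and 44 in the WT libraries. Every KO library was above every WT library, and KO 1 stood highest. The mean was 10.2 ± 5.46 CPM in KO (SD, n = 3) and 0.878 ± 0.418 CPM in WT (SD, n = 4), 11.7-fold higher in KO, and the fitted log2 fold change was 3.53 (SE 0.44). The fold lay between 3.02 without KO 1 and 4.10 without WT 4 and KO 3 on the log2 scale. The edgeR adjusted p was 0.0288 with all libraries, and over the 14 alternatives it ran from 1.17e-15 (DESeq2) to 0.126. It was above the threshold without KO 1 (0.0701), KO 2 (0.0527), WT 1 (0.0959), WT 2 (0.126) or WT 3 (0.0812).

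Iigp1, the GKS protein known in mouse for attacking the vacuole of Toxoplasma, lies 125 kb from Gm4951 on the same chromosome, at 60373616 to 60392634. Its level was low and uneven, with 2.11, 1.24 and 1.32 CPM in KO 1 to KO 3, against 0.615, 1.44, 0.159 and 0.376 CPM in WT 1 to WT 4. The groups overlapped through WT 2, which was above KO 2 and KO 3. The log2 fold change was 1.27 (SE 0.60), and with 1 library left out it ran from 0.95 (without WT 3) to 2.00 (without WT 2).

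Between the pair lies F830016B08Rik, a further IRG gene of the same subgroup and no member of the set of 10 (60288739 to 60303823). It had 87, 29 and 26 counts in KO 1 to KO 3, against 10, 0, 0 and 11 counts in WT 1 to WT 4. Every KO library was higher than every WT library, and its fitted log2 fold change of 3.36 (SE 0.88) rests on WT counts at and near 0. The edgeR adjusted p was 0.120, and it passed in 2 of 13 alternatives, with the replicate block (0.0335) and without the filter (0.0258), with a highest value of 0.491. Summed over the 3 neighbours, the level was 13.4 ± 6.97 CPM in KO (SD, n = 3) and 1.68 ± 0.699 CPM in WT (SD, n = 4). Gm4951, selected on this difference, made up 10.2 CPM of the KO mean and 0.878 CPM of the WT mean.

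The neighbours share little sequence over stretches of 50 bases. The coding sequences of Gm4951 and Iigp1 were 88% identical, and those of Gm4951 and F830016B08Rik 69.5%. Of all 50-base stretches in Gm4951 transcripts, 4.62% occurred in a transcript of another gene, 3.35% in Iigp1. For F830016B08Rik the share was 1.75%. How the authors counted reads with several matches is not given here, and its part in the counts was not tested.

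Ifi47, the remaining GKS member, lies on chromosome 11 at 49076587 to 49096987. It had 13.5, 12.2 and 15.3 CPM in KO 1 to KO 3, against 12.2, 7.53, 9.29 and 11.5 CPM in WT 1 to WT 4. Only KO 2 fell within the WT range, just under WT 1. The mean was 13.7 ± 1.59 CPM in KO (SD, n = 3) and 10.1 ± 2.14 CPM in WT (SD, n = 4), and the log2 fold change was 0.43 (SE 0.18).

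Each of the 3 GMS regulators had overlapping values in the genotypes. Irgm1, which protects host membranes and lysosomes (chromosome 11, 48865245 to 48871420), had 31.1, 29.2 and 20.8 CPM in KO 1 to KO 3, against 26.2, 20.6, 21.7 and 20.8 CPM in WT 1 to WT 4. KO 1 and KO 2 were above all WT libraries, and KO 3 was level with the lower ones, so that the log2 fold change of 0.27 (SE 0.15) was 0.43 without KO 3 and 0.16 without KO 1.

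Igtp, also called Irgm3 (58199556 to 58207592), had 19.3, 20.4 and 17.6 CPM in KO, against 21.8, 19.2, 21.1 and 21 CPM in WT. WT 2 lay within the KO range, and the log2 fold change was -0.12 (SE 0.10). Irgm2, its neighbour at a distance of 7.38 kb (58214977 to 58222783), had 5.88, 4.16 and 5.15 CPM in KO, against 4.73, 5.75, 4.04 and 4.60 CPM in WT. KO 2 was near the lowest WT library and KO 1 above the highest, with a log2 fold change of 0.08 (SE 0.19) that was -0.04 without KO 1. Of the 50-base stretches in Igtp transcripts 11.8% also occurred in Irgm2, so reads of this pair may be shared.

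**Figure D1:**
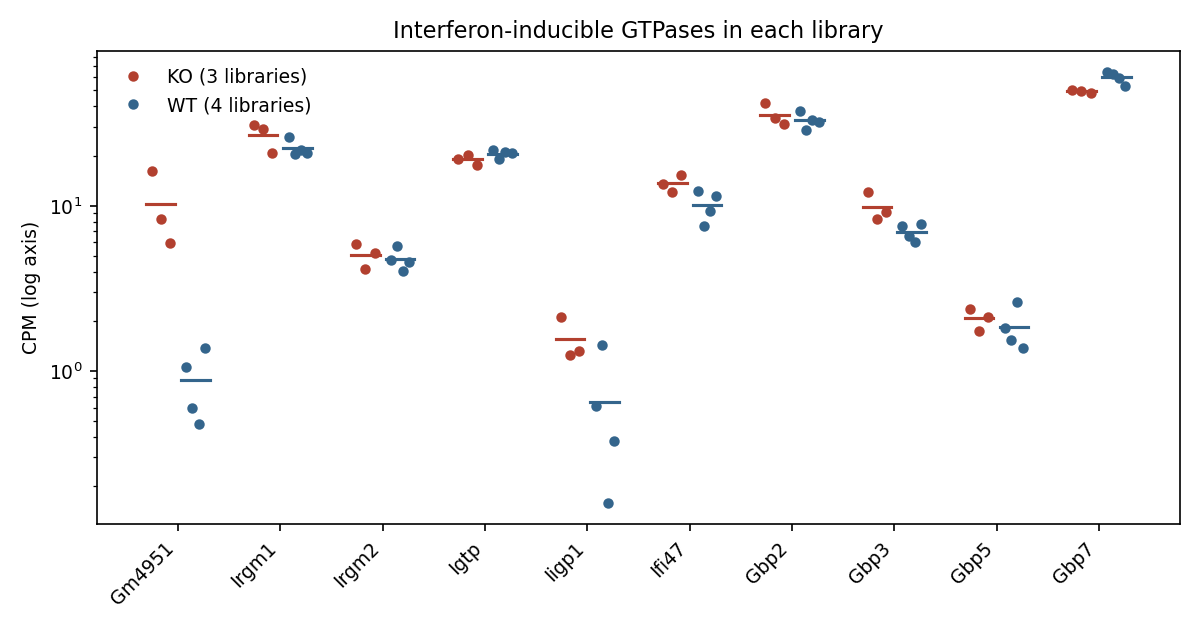
CPM of the 10 members in each library (log axis); points are libraries, horizontal bars are group means, KO (n = 3) left of WT (n = 4) for each gene. Gm4951 and Gbp3 were higher in all KO libraries than in all WT libraries, Gbp7 was lower in all KO libraries, and the other 7 overlapped.

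The 4 GBP members lie together on chromosome 3 within 141 kb and did not share a direction. Gbp2, a GBP that coats bacterial and parasite vacuoles (142620663 to 142638008), had 41.8, 34.0 and 31.4 CPM in KO, against 37.8, 28.6, 33.1 and 32.3 CPM in WT. The groups overlapped, with KO 1 highest and WT 2 lowest. The log2 fold change was 0.12 (SE 0.13) and -0.01 without KO 1.

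Gbp3 (142560016 to 142573213) had 12.1, 8.31 and 9.12 CPM in KO, against 7.53, 6.53, 6.04 and 7.79 CPM in WT. The groups did not overlap, though KO 2 and WT 4 lay close together. The log2 fold change was 0.50 (SE 0.17), and 0.32 without KO 1. Gbp5, which in mouse and human is known for promoting inflammasome activity (142496934 to 142522344), was low, with 2.38, 1.75 and 2.13 CPM in KO, against 1.82, 1.53, 2.61 and 1.38 CPM in WT. WT 3 was the highest of all libraries, and the log2 fold change of 0.19 (SE 0.28) was 0.40 without it.

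Gbp7, the most abundant member by CPM (142530336 to 142550151), had 50.4, 49.9 and 48.0 CPM in KO, against 64.5, 63.1, 59.4 and 53.4 CPM in WT. Every KO library was below every WT library, with WT 4 nearest to KO. The mean was 49.5 ± 1.26 CPM in KO (SD, n = 3) and 60.1 ± 4.96 CPM in WT (SD, n = 4), and the log2 fold change was -0.28 (SE 0.08). Gbp7 shares 12.7% of its 50-base stretches with transcripts of other genes, 10.5% with Gm43802. In all, 2 of the 10 members were higher and 1 was lower without overlap, against 7.23% and 8.72% of all genes tested.

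Per length of the longest coding transcript, the levels ran over a wide range within each genotype. In KO the order of the mean CPM per kb was Gbp2 (14.2 ± 2.14), Irgm1 (12 ± 2.43), Igtp (9.45 ± 0.711), Gbp7 (8.81 ± 0.225), Ifi47 (7.71 ± 0.898), Gm4951 (3.87 ± 2.06), Gbp3 (3.68 ± 0.754), Irgm2 (1.43 ± 0.245), Gbp5 (0.683 ± 0.104) and Iigp1 (0.5 ± 0.154; SD, n = 3). In that order Ifi47 was clear of Gm4951, Gbp3 of Irgm2 and Irgm2 of Gbp5, while the libraries of the other neighbours overlapped.

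In WT the order was Gbp2 (13.1 ± 1.5), Gbp7 (10.7 ± 0.884), Igtp (10.3 ± 0.546), Irgm1 (9.89 ± 1.17), Ifi47 (5.72 ± 1.21), Gbp3 (2.6 ± 0.307), Irgm2 (1.36 ± 0.202), Gbp5 (0.6 ± 0.179), Gm4951 (0.332 ± 0.158) and Iigp1 (0.207 ± 0.179; SD, n = 4). The first 4 overlapped from neighbour to neighbour, as did the last 3, and the genes between them were each clear of the next. Gm4951 was thus sixth of the 10 in KO and ninth in WT. With the union of all annotated exons as length, an alternative added after the data were seen, Irgm1 came after Ifi47 in both genotypes and Gm4951 came before Gbp5 in WT. Gbp2 stayed first and Iigp1 last.

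**Figure D2:**
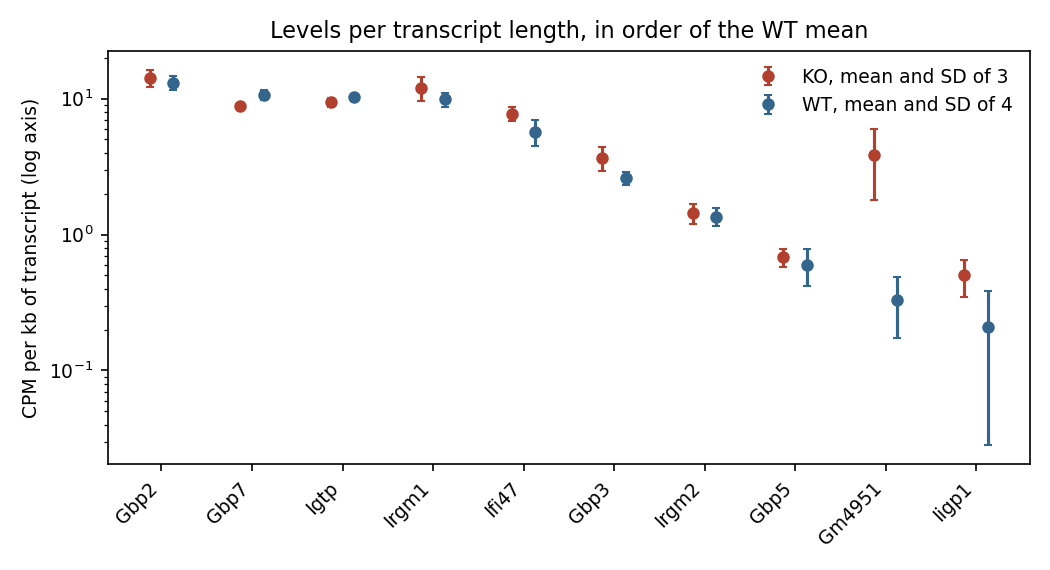
Mean CPM per kb of the longest coding transcript (log axis) with SD, KO (n = 3) left of WT (n = 4), genes in order of the WT mean. Gbp2 is highest in both genotypes, and Gm4951 is sixth in KO and ninth in WT.

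Gm4951 set apart, the 9 other members had a median log2 fold change of 0.19, with 7 above 0, while over all genes tested the median was 0.00 and 50.5% were above 0. The median was 0.08 without KO 1 and 0.11 without WT 4. By the root mean square difference of centred log2 CPM over the 7 libraries, Iigp1 was the member nearest to Gm4951 (1.29) and Gbp7 the farthest (1.93). The genotype difference on which Gm4951 was selected enters this measure, so the order is a description only.

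The genes outside the set nearest to Gm4951 by this measure were Lhx2 (0.50), Gm14636 (0.52), C2 (0.53), Cd200r2 (0.54) and F830016B08Rik (0.56). Each of these 5 was higher in KO, as nearness to Gm4951 requires, and by level they reached 3.36, 1.88, 2.44, 19.2 and 1.65 CPM in KO, against 0.269, 0.23, 0.332, 2.07 and 0.156 CPM in WT. edgeR called C2 among them (adjusted p 0.0420) and none of the other 4. Nearest to the mean of the 9 others, all at 0.06, were Parp9, Kif3a, Sfmbt1, Lysmd3 and Xpot. Parp9 was at 33.2 CPM in KO and 27.1 CPM in WT.

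The other genes of both families were read from a list of 16 that left out the 10 members, of which 15 passed the filter and Gbp2b, at 0 to 3 counts in each library, did not. edgeR called 0 of the 15. At an unadjusted p below 0.05 edgeR had 8, against 18% of all genes tested, and DESeq2 called 3, Gm12250, Tgtp1 and Gbp6, each higher in KO, against 6.11% of all genes it tested. The median log2 fold change was 0.81, with 13 of 15 above 0. It was 0.39 without KO 1, and -0.05 over the 4 genes left with at least 5 CPM in 3 libraries.

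Among the GKS genes of that list, Gm12250, known as Irgb10 and as a mouse IRG that targets bacterial membranes, had 2.28, 1.75 and 1.43 CPM in KO, against 0.531, 0.438, 0.605 and 0.751 CPM in WT. The groups were clearly apart, and none of its 50-base stretches occurred in another gene. Its log2 fold change was 1.64 (SE 0.31) with an edgeR adjusted p of 0.0898 and a DESeq2 adjusted p of 0.00132, and its adjusted p reached 0.370 without KO 1. It lies 9.36 kb from Igtp, whose log2 fold change was -0.12.

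Tgtp1 and Tgtp2, the near-identical Irgb6 pair, had log2 fold changes of 1.20 (SE 0.36) and 1.43 (SE 0.37). Tgtp1 had 2.18, 2.60 and 1.36 CPM in KO, against 1.40, 0.813, 0.7 and 0.626 CPM in WT, so that KO 3 overlapped WT 1. Of the 50-base stretches of Tgtp2, 85.8% occurred in Tgtp1, so most reads of the pair cannot be told apart and the pair is not 2 separate observations. The same holds in part for the tandem IRG genes 9930111J21Rik1, 9930111J21Rik2 and Gm5431, whose log2 fold changes were 0.04, -0.18 and 0.86.

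Grouped by the pocket codon, a grouping made after the values were seen, the 11 IRG genes other than Gm4951 with a lysine codon had a median log2 fold change of 0.86, with 10 above 0. It was 0.62 without KO 1, and 1.20 over the 9 genes left when the distant relatives Irgq and Irgc1 were set aside. F830016B08Rik, Gm12250 and Tgtp2 were higher without overlap, against 7.23% of all genes tested, and Tgtp2 shares most of its 50-base stretches with Tgtp1, whose groups overlapped. The 3 GMS genes had a median of 0.08 and each overlapped. Without KO 1 that median was -0.04, and 0.20 when KO 2 was left out. The higher folds were those of genes at low levels: with at least 5 CPM in 3 libraries required, 4 of the 11 were left, with a median of 0.14. The difference between the classes was not tested.

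On chromosome 5 the GBP genes ranged widely. Gbp6 had 11.8, 4.58 and 6.43 CPM in KO, against 4.28, 2.56, 2.67 and 3.57 CPM in WT, without overlap. Its log2 fold change was 1.22 (SE 0.32), and its adjusted p values were 0.122 by edgeR and 0.0069 by DESeq2. Without KO 1 the log2 fold change was 0.75 with an adjusted p of 0.488, and 70.7% of its 50-base stretches occurred in other genes. Gbp4 (0.98) and Gbp10 (0.81) had positive log2 fold changes, and that of Gbp10 was 0.14 without KO 1. Of the 50-base stretches of Gbp10, 73.3% occurred in Gbp6, so many reads of these genes cannot be told apart. Gbp6 and Gbp10 are therefore not separate observations. Gbp9 (0.11) and Gbp11 (0.27), the latter annotated as a transcribed pseudogene, lay near 0.

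Gbp8, the most abundant of this cluster, had a log2 fold change of -0.46 (SE 0.17), with 29.9 ± 7.68 CPM in KO (SD, n = 3) and 41.1 ± 4.63 CPM in WT (SD, n = 4). The median of the 6 genes was 0.54, and 0.23 without KO 1. With at least 5 CPM in 3 libraries required, Gbp8 alone was left, at -0.44. The distant relatives Irgq and Irgc1, not known as interferon-induced, had log2 fold changes of 0.41 (SE 0.31) and 0.21 (SE 0.35), and for Irgc1 the value was -0.32 without KO 3.

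**Figure D3:**
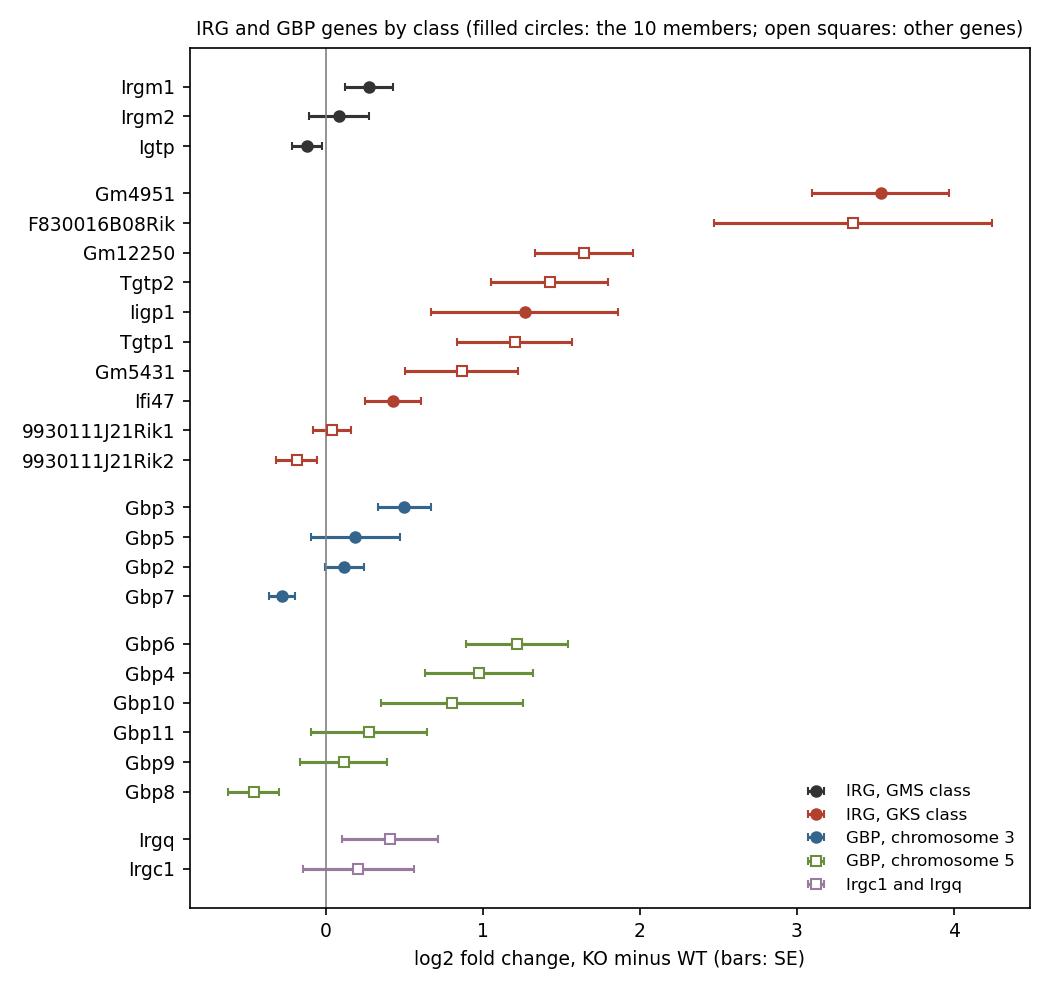
Fitted log2 fold change, KO minus WT, with SE, for the 25 IRG and GBP genes that passed the filter, by class; filled circles are the 10 members. Gm4951 (3.53) and its neighbour F830016B08Rik (3.36) lie farthest to the right, and the 3 GMS genes lie between -0.12 and 0.27.

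Within the family KO 1 stood out among the libraries. It held the highest CPM of the 7 libraries for 15 of the 25 family genes (60%), against 19.7% of all genes tested. KO 1 was also the library with the highest summed T cell (7.07 CPM), NK cell (7.99 CPM) and endothelial (28.7 CPM) marker levels. Its neutrophil (32.5 CPM) and dendritic cell (12.1 CPM) sums were highest too, most of them S100a8 and Ccl22. Without S100a8 the neutrophil markers summed to at most 1.75 CPM in KO and 1.99 CPM in WT. Without Ccl22 the dendritic cell markers summed to at most 3.46 CPM in KO, in KO 3, and 1.96 CPM in WT. B cell markers were highest in WT 1 (3.44 CPM, against 3.04 CPM in KO 1). KO 3 was above every WT library in endothelial (21.9 CPM, against at most 15 CPM in WT) and monocyte or interstitial macrophage markers (28.2 CPM, against at most 21.7 CPM in WT). Without Vwf every KO library was above every WT library in the endothelial sum. Among NK markers Klrb1c was at 2.94 and 3.92 CPM in KO 1 and KO 2 but 0.147 CPM in KO 3, against 0.0636 to 0.344 CPM in WT, while Ncr1 was at 0 in KO 3, WT 1 and WT 4. Of these lists 5 of 6 T cell, 4 of 7 NK cell, 4 of 5 B cell and 4 of 4 endothelial markers passed the filter. So did 2 of 6 neutrophil, 3 of 5 dendritic cell and 7 of 7 monocyte markers. The part of such cells in the GTPase values was not tested.

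**Figure D4:**
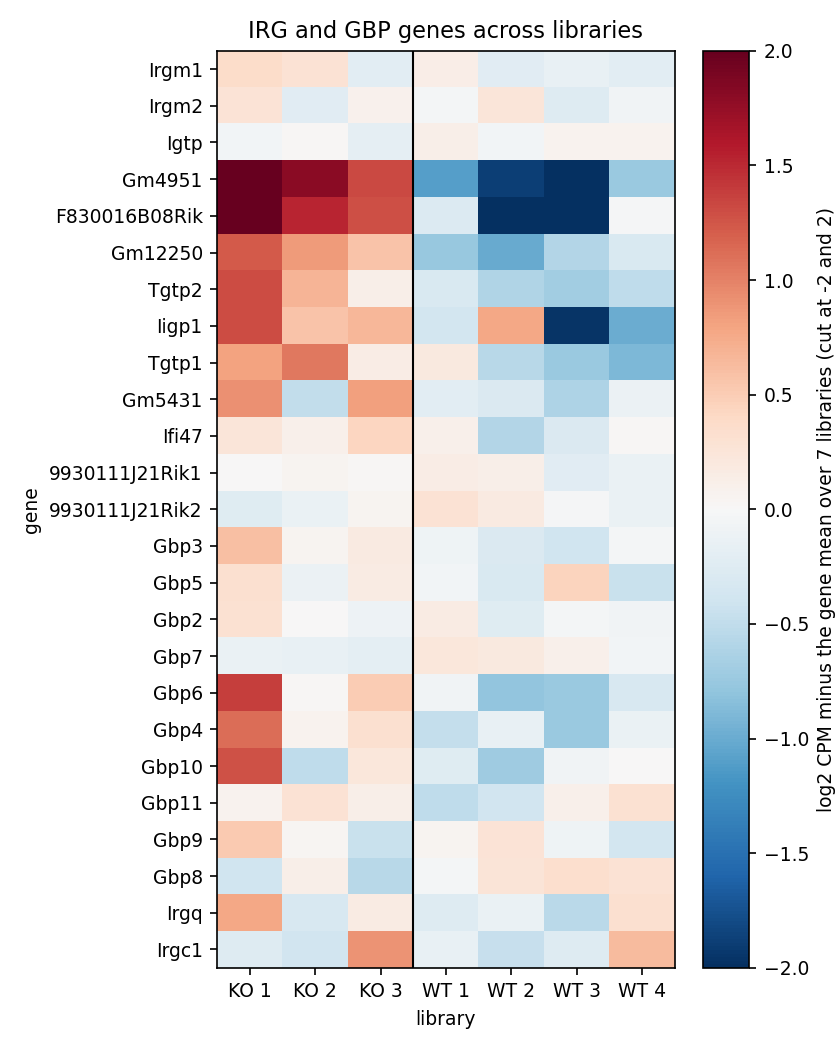
Log2 CPM of each IRG and GBP gene minus its mean over the 7 libraries, KO columns left of the line and WT columns right of it; colours are cut at -2 and 2. KO 1 is highest for 15 of the 25 genes. Gm4951 and F830016B08Rik have the highest log2 fold changes, though F830016B08Rik lies near its mean in WT 1 (-0.27) and WT 4 (-0.02).

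Upstream of the GTPases, transcripts of the listed ligands were barely present in these libraries. Ligand protein, and ligand made by cells outside the libraries, was not measured, and of the Ifna genes only Ifna4 was listed. Ifng had 0.0368 to 0.165 CPM in KO and 0 to 0.191 CPM in WT, and Ifna4 and Ifnl2 had no count in any library. Of 12 ligands and receptors 5 passed the filter, all of them receptor chains. None of the 5 was called, since edgeR and DESeq2 both gave 0, and edgeR had 0 at an unadjusted p below 0.05. Ifnar1, a chain of the type I interferon receptor, had a log2 fold change of 0.19 (SE 0.09), and Ifngr2, a chain of the interferon-gamma receptor, of 0.29 (SE 0.16).

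Of 18 kinases, factors and feedback genes of interferon signalling, edgeR called 0, with 6 at an unadjusted p below 0.05 (18% over all genes tested), and DESeq2 called 3 higher and 1 lower in KO (6.11% over all genes). The median log2 fold change was 0.16. Irf1, named after its values were seen, had a log2 fold change of 0.25 (SE 0.20), and 0.01 without KO 1. The feedback inhibitor Socs3 had 42.4 ± 9.55 CPM in KO (SD, n = 3) and 13.9 ± 4.37 CPM in WT (SD, n = 4). Its log2 fold change was 1.60 (SE 0.24), with adjusted p values of 0.0561 by edgeR and 1.5e-08 by DESeq2. Ciita, the master regulator of MHC class II genes and itself inducible by interferon-gamma, had 2.7 ± 1.31 CPM in KO (SD, n = 3) and 13.9 ± 8.48 CPM in WT (SD, n = 4), a log2 fold change of -2.36. Its adjusted p values were 0.0950 by edgeR and 0.00301 by DESeq2.

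Other targets of interferon-gamma had a median near 0. Of 25 listed, 21 passed the filter, with 14 above 0 and a median log2 fold change of 0.07. edgeR called 0 and had 5 at an unadjusted p below 0.05, against 18% of all genes, and DESeq2 called 1 higher and 1 lower in KO, against 6.11%. Both counts are near those shares. Cxcl9, a chemokine that draws T cells, had 6.44 ± 0.94 CPM in KO (SD, n = 3) and 4.16 ± 0.72 CPM in WT (SD, n = 4). Its adjusted p values were 0.149 by edgeR and 0.0497 by DESeq2. Fcgr1, a high-affinity receptor for IgG, had 41.8 ± 4.69 CPM in KO (SD, n = 3) and 58 ± 3.97 CPM in WT (SD, n = 4). The adjusted p values of Fcgr1 were 0.0940 by edgeR and 0.00306 by DESeq2.

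Genes that work with the GTPases had a median near 0. Of 23 genes for autophagy conjugation, lipid anchoring and the inflammasome, edgeR called 0, with 6 at an unadjusted p below 0.05, and DESeq2 called 1 higher and 1 lower, again near the 18% and 6.11% of all genes. Their median log2 fold change was -0.02. Atg3, an enzyme of the conjugation system needed to place IRG and GBP proteins, had 182 ± 5.07 CPM in KO (SD, n = 3) and 221 ± 12.8 CPM in WT (SD, n = 4). Its log2 fold change was -0.28 with SE 0.08, and its adjusted p values were 0.130 by edgeR and 0.0230 by DESeq2. Casp4, the caspase that senses bacterial lipopolysaccharide on GBP-coated bacteria, had a log2 fold change of 0.48 with SE 0.14. Its adjusted p values were 0.133 by edgeR and 0.0400 by DESeq2.

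The larger and dynamin-like interferon GTPases gave low or uneven values. Of 5 listed genes 4 passed the filter. Both edgeR and DESeq2 called 0 of them, and 1 had an unadjusted edgeR p below 0.05. Mx1 had 0.561, 0.311 and 1.32 CPM in KO, against 0.42, 0.188, 0.382 and 0.219 CPM in WT. Its log2 fold change was 1.26 (SE 0.54), and 0.53 without KO 3. Gm1966 had a log2 fold change of -0.60 (SE 0.87), with WT values that spread more than any difference between the genotypes.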

How the data were processed

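RNA of 7 alveolar macrophage libraries (3 KO, 4 WT) had been sequenced by the submitters after sorting into TRIzol LS and Nextera XT library preparation, per the labels' protocols. The deposited values are raw read counts per gene symbol, with 1 column per library, per the file headers; the table's name gives rsubread. The submitters' processing notes name mm10 and DESeq2. The annotation, strand setting and treatment of multi-mapping reads: not given in the sources used here. Nextera XT does not mark strand, so overlapping antisense genes cannot be told apart.

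Of 27179 table rows, 1036 without symbol (0.376% to 0.424% of counts) were left out. edgeR 4.0.16 (R 4.3.3) was run across all genes with filterByExpr, TMM factors and a quasi-likelihood test on genotype, with Benjamini-Hochberg adjustment over 12759 genes; genes with an adjusted p below 0.05 were called. SEs of log2 fold changes were taken from the F statistic, and log2 CPM used a prior count of 2. DESeq2 1.42.0 was an alternative. Without molecular identifiers, copied reads cannot be told apart.

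The members and lists were chosen with earlier results of these data known. The text names all members, the other IRG and GBP genes, and per further list the called genes or the 2 with the smallest p. Sequences are from RefSeq and GENCODE M21.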

Additional observations from a re-analysis of the deposited data

How the results depend on the processing

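The number of genes called over the whole table moved most: 11 with the stated test, 775 with DESeq2, 397 without the filter, 21 with at least 5 CPM in 3 libraries, 590 without WT 4 and KO 3, and 7 (without WT 1) to 284 (without WT 4) with 1 library left out. Of the 10 members 1 was called in each of these settings except with 1 library left out, where the count ran from 0 to 1 (0 without KO 1, KO 2, WT 1, WT 2 or WT 3). Genes of the other lists called numbered 0 with the stated test, 11 with DESeq2, 8 without the filter, 1 with at least 5 CPM in 3 libraries, 6 without WT 4 and KO 3, and 0 to 5 with 1 library left out (5 without WT 4, 3 without KO 3). With the replicate number as a block (WT 4 having no partner), 430 genes, 1 member and 8 genes of the other lists were called. Deviations of same-numbered KO and WT libraries correlated at -0.01, 0.14 and -0.02, and 0 of 3 KO libraries were closest to the WT library of their number, so the numbers were not taken to pair libraries. RLE factors and library sizes only gave 11 and 12 genes in all. The cause of these shifts was not tested. Signs of Igtp and Gbp7 (below 0), and of Gm4951, Irgm1, Ifi47, Gbp3, Iigp1 and Gbp5 (above 0), were kept in all alternatives run (14, or 13 for Iigp1 and Gbp5, which the 5 CPM filter dropped). Irgm2 and Gbp2 were at -0.04 and -0.01 without KO 1 and above 0 in the other 13 alternatives. Leaving out genes under 5 CPM took the medians of the other IRG and GBP genes to -0.05 and of the chromosome 5 GBP genes to -0.44. The precision is lowest for genes with few counts, such as F830016B08Rik in WT.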

Other observations

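Gm1966, a predicted gene listed with the very large GTPase Gvin1, had 23.1, 25.9 and 20.8 CPM in KO 1 to KO 3, against 0.979, 63.4, 56.9 and 20.2 CPM in WT 1 to WT 4. WT 1 stood far below WT 2 and WT 3, with 35 counts against 2027 and 1789, while Gvin1 itself had 35.7 CPM in WT 1 and 42.4 CPM in WT 4, against 52.4 and 77.8 CPM in WT 2 and WT 3. Nlrc5, the regulator of MHC class I genes, had 4.49, 3.30 and 4.49 CPM in KO, against 1.43, 1.69, 0.986 and 2.32 CPM in WT, and Usp18, a brake on type I interferon signalling, had 3.8, 1.44 and 3.97 CPM in KO, against 1.34, 0.594, 1.18 and 1.25 CPM in WT. Both were called by DESeq2 (adjusted p 0.0012 and 0.0117) and not by edgeR (0.0950 and 0.125), and they were named after their values were seen.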
